A study of Rattus norvegicus with 23 samples.

Results

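Signals of 10 genes that encode neuropeptide precursors were described in the dorsal hippocampus of young and aged rats. The genes were Nts, Sst, Cort, Npy, Vip, Cck, Tac1, Penk, Pdyn and Crh. They were taken by name, as the probe sets to which the annotation table of the array gives that symbol and no other. Each of the 10 names had 1 such probe set, of 29211 probe sets in all. All 10 passed the minimum of 40 on at least 4 arrays, and none held a blank value on any of the 23 arrays. Tac1, Crh and Vip had the lowest mean signals, 68.4, 77.4 and 89.3. These lay at percentiles 12.2, 15.0 and 18.3 of the probe sets tested. Tac1 and Crh did not pass an alternative minimum of 100, so their differences come from weak signals.

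All animals were male F344 rats, an inbred strain. Young controls (YC, n = 6) had a labelled age of 5 to 6 months and were given no injection. The other groups were assayed at 21 months and had received an adeno-associated virus bilaterally into CA1, with the transgene under the CaMKII promoter, which is active mainly in excitatory neurons. Aged controls (AC, n = 5) received AAV-eGFP at 1.86e13 genome copies per mL. The short-term (ST, n = 6) and long-term (LT, n = 6) groups received AAV-FKBP1b at 1.99e12 genome copies per mL. FKBP1b is an immunophilin that limits calcium release through ryanodine receptors. The sample labels give an injection age of 18 months for AC and ST and 12 months for LT, whereas the design text gives 13, 19 and 13 months. According to the methods, the ST and LT arrays were taken from rats with FKBP1b expression above the median of their group. Age, surgery and vector all separate YC from AC and cannot be told apart. Vector titre separates AC from ST and LT. Injection age, and so the time since injection, separates AC from LT by the sample labels and AC from ST by the design text. The choice of rats by FKBP1b expression was made in ST and LT but not in AC. None of these can be told apart from the transgene.

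The probe set annotated to Fkbp1b gave signals of 353 to 411 in the young rats. In the aged rats it gave 364 to 458 for AC, 427 to 881 for ST and 843 to 1217 for LT, so that ST overlapped AC and LT did not. The paper's text says that this array lacks an FKBP1b probe set, against the annotation table, so what that probe set measures is uncertain. For the tissue, 12 of 14 listed genes of CA pyramidal cells and 6 of 12 of dentate granule cells had a probe set that passed the minimum. Arrays differed in genes of neighbouring tissue. A list score, the mean over a list of each gene's log2 signal less its mean over the 23 arrays, for 18 choroid plexus genes was between 2.25 and 2.77 on 4 arrays (AC replicates 3 and 4, LT replicates 2 and 5), and between -0.89 and 0.38 on the others. AC replicate 5 had the lowest score of any array for oligodendrocytes (-0.48) and for dentate granule cells (-0.39), and the highest for microglia (1.03). Its scores for pan-neuronal genes (0.14) and for astrocytes (0.11) were the highest too. AC replicate 5 and LT replicate 3 shared the lowest RNA integrity number, 8.9.

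Neuropeptides are cut from larger precursor proteins in the secretory pathway, stored in dense-core granules and released during sustained firing, after which they act on G-protein-coupled receptors. In the hippocampus, somatostatin, neuropeptide Y, vasoactive intestinal peptide and cholecystokinin mark classes of GABAergic interneurons, whereas dynorphin is a peptide of dentate granule cells and their mossy fibres. RNA from whole dissected tissue was measured, so fewer cells of a type and less RNA per cell cannot be told apart.

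For 7 of the 10 genes (all but Cck, Penk and Crh), a promoter window of 300 bases, from 250 before to 50 after the annotated start, was held in the RefSeq table of build GRCr8. Short motifs through which neuronal activity can drive neuropeptide genes were searched on both strands, namely the cyclic AMP response element TGACGTCA, its variant TGCGTCA, and the AP-1 site TGAGTCA, together with the TATA motif TATAAA. None of these strings contains another. The stretches of Nts, the gene with the largest difference between AC and YC, and of the related pair Sst and Cort follow, 5′ to 3′ on the strand of the gene, with matches in capitals. They lie at chr7:39460889-39461138 (minus strand), chr11:90461296-90461555 (plus strand) and chr5:164845125-164845374 (minus strand). The first and the last end at the annotated start, and that of Sst runs to the end of its motif.
Nts: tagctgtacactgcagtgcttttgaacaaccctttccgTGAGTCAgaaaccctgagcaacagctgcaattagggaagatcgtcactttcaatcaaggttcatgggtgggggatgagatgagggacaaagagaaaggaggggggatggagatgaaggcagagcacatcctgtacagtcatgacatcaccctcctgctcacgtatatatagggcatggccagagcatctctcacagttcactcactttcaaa
Sst: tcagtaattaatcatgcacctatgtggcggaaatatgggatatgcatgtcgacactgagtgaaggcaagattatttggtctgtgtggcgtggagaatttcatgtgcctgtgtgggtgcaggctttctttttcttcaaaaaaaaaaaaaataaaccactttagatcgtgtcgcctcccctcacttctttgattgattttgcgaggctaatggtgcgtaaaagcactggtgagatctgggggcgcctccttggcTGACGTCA
Cort: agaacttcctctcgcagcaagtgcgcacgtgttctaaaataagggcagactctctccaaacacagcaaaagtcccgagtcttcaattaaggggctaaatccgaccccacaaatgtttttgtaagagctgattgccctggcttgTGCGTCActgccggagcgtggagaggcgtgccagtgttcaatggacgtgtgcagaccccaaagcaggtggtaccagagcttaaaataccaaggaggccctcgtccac
Nts held the AP-1 letters 212 bases before its start, and these letters were in 4.63% of 33469 promoters of the same length. Sst was the only 1 of the 7 with TGACGTCA, which was in 1.83% of all promoters. In Sst it began at position 253 of the window, just after the annotated start and not before it. Cort and Tac1 held TGCGTCA, at 107 and 208 bases before the start, as did 1.9% of all promoters. Vip and Pdyn held TATAAA, as did 14.2%. A match is a description of letters, and the array data do not bear on binding.

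Nts was lower in AC than in YC and was the only 1 of the 10 genes to pass the test between these groups. Nts encodes the precursor of neurotensin, a peptide that modulates dopamine and glutamate signaling. Its signals on the 5 AC arrays were 400, 505, 462, 303 and 87, and on the YC arrays the lowest was 515, the median 606.5 and the highest 677. Every AC array thus lay below every YC array, and AC replicate 5 lay far below the rest. The mean signal was 604 ± 52.8 (SD, n = 6) in YC and 351 ± 166 (SD, n = 5) in AC. On the log2 scale Nts fell by 1.0 (standard error 0.30, 95% confidence interval -1.62 to -0.38, limma adjusted p = 0.039). In this comparison 9.75% of the 13339 probe sets tested were called, against 1 of the 10 genes. All AC arrays lay below all YC arrays at 1.88% of probe sets, and at 1 of the 10 genes.

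The size of the Nts difference rested largely on AC replicate 5, and its call lay near the threshold. When AC replicate 5 was left out, the difference was -0.55 (limma adjusted p = 0.035). The call was lost without AC replicate 4 (-1.0, adjusted p = 0.071) and without any single YC replicate (adjusted p from 0.050 to 0.069). With AC replicate 5 and LT replicate 3 both left out, a setting chosen after the signals were seen, Nts remained called at -0.55 (adjusted p = 0.013). With the 4 arrays of high choroid plexus score left out, the difference was -1.21 and did not pass (adjusted p = 0.077).

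**Figure D1:**
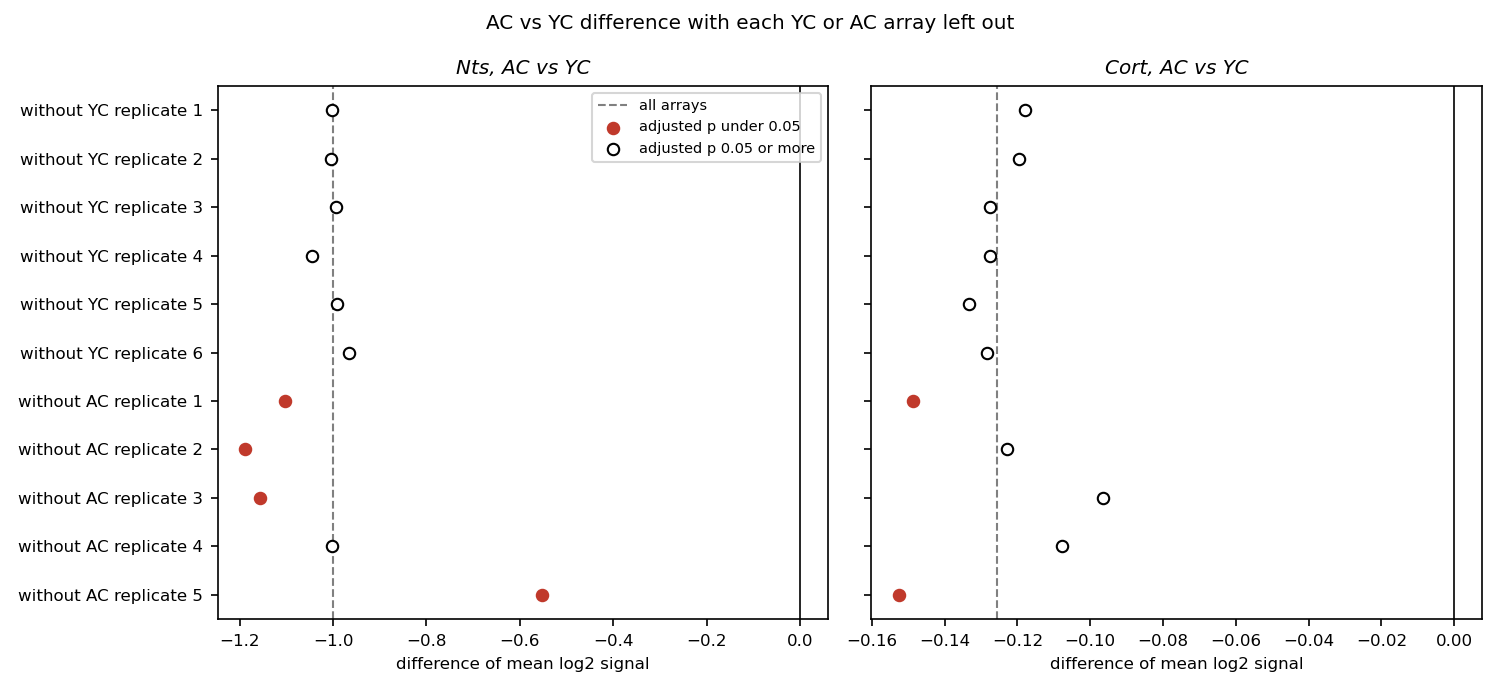
Difference of mean log2 signal, AC minus YC, for Nts (left) and Cort (right) with each YC or AC array left out in turn; the dashed line is the value with all arrays, and filled points had a limma adjusted p under 0.05. Nts stood at -0.55 without AC replicate 5 and between -1.19 and -0.97 otherwise, and all points of both genes lay below 0.

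In the aged rats that received AAV-FKBP1b, Nts lay between AC and YC by its mean and passed no test. The ST arrays ran from 356 through a median of 518.5 to 636, with a mean of 505 ± 90.8 (SD, n = 6). The LT arrays ran from 278 through a median of 485 to 515, with a mean of 451 ± 88.8 (SD, n = 6). Both groups overlapped AC, and LT replicate 3, at 278, stood apart from the other LT arrays, the next of which was at 441. The difference was 0.73 for ST minus AC (95% confidence interval 0.10 to 1.35, limma adjusted p = 0.45) and 0.56 for LT minus AC (-0.07 to 1.18, adjusted p = 0.45). These values were 0.28 (adjusted p = 0.64) and 0.11 (adjusted p = 0.82) without AC replicate 5. Against YC, the differences of Nts were -0.27 in ST (adjusted p = 0.62) and -0.44 in LT (adjusted p = 0.53). The comparisons of ST and LT with AC and of AC with YC share the AC arrays, so a low AC group moves all of them.

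The relation of Nts to other genes on the same arrays was also examined. Over all 23 arrays the 3 tested genes most like Nts were Adgrl2, which encodes an adhesion receptor (Pearson r = 0.94), Mal, which encodes a myelin proteolipid (0.93), and Kcnh7, which encodes a potassium channel (0.92). These values were 0.84, 0.79 and 0.64 without AC replicate 5 and LT replicate 3, and 0.92, 0.92 and 0.91 over all arrays with group means removed. With group means removed, Nts followed the oligodendrocyte list score (Pearson r = 0.92, permutation p = 1e-05, adjusted p = 0.0004; Spearman rho = 0.66, permutation p = 0.00082, adjusted p = 0.009). The 1e-05 is the smallest p that the permutations can give. Without AC replicate 5 and LT replicate 3, r for the oligodendrocyte score was 0.68. The relation of Nts to the RNA integrity number (r = 0.72, permutation p = 0.00035, adjusted p = 0.0035) rested on those arrays, since r was 0.21 without them and Spearman rho was 0.35 (permutation p = 0.10). The part of either measure in the age difference of Nts was not tested beyond a fit with the RNA integrity number as a covariate, which gave -0.87 (limma adjusted p = 0.016).

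**Figure D2:**
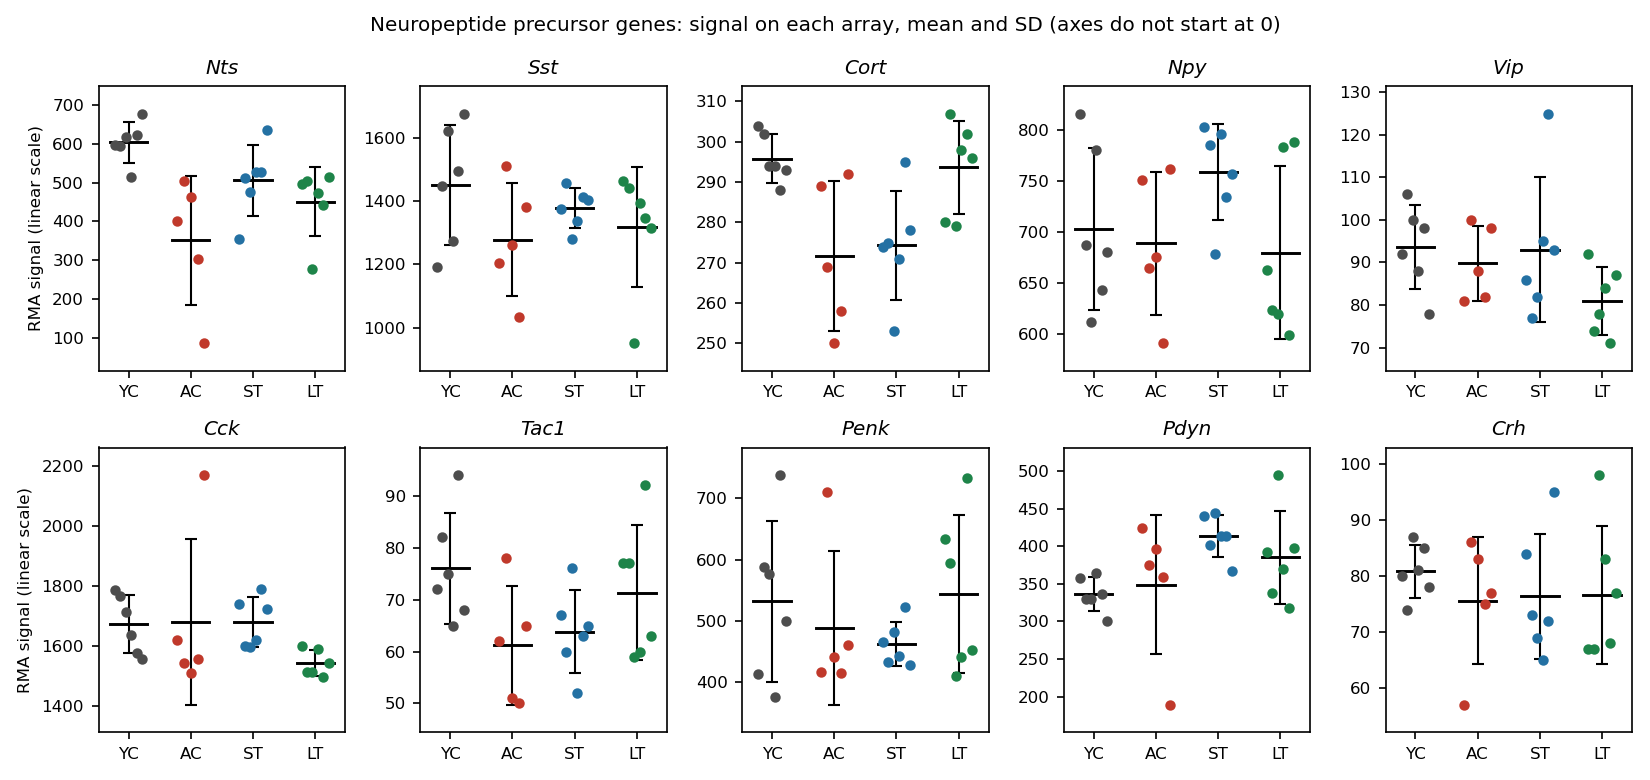
Signal of each of the 10 neuropeptide precursor genes on the 23 arrays, on the linear scale of the deposited values, with 1 point for each rat and the mean and SD of each group in black; each panel has its own axis, which does not start at 0. Nts is the only gene for which the AC points all lie below the YC points, and AC replicate 5 is the low Nts and Pdyn point and the high Cck point.

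Sst and Cort encode the related peptides somatostatin and cortistatin, which share receptors and inhibit release and firing. Neither passed in AC against YC. Sst signals were 1204, 1512, 1262, 1035 and 1382 on the AC arrays, against 1191, 1472 and 1678 as the lowest, median and highest of YC. The groups overlapped, and the mean was 1452 ± 191 (SD, n = 6) in YC and 1279 ± 181 (SD, n = 5) in AC. The difference was -0.18 on the log2 scale (95% confidence interval -0.40 to 0.04, limma adjusted p = 0.27). In ST, Sst ran from 1281 to 1459 with a median of 1390, the narrowest range of the 4 groups. In LT it ran from 950 to 1464 with a median of 1371, and LT replicate 3, at 950, was the lowest of all 23 arrays. The differences from AC were 0.12 in ST (adjusted p = 0.76) and 0.04 in LT (adjusted p = 0.90).

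Cort varied little within groups. Its AC signals were 289, 269, 250, 258 and 292, and its YC signals ran from 288 through a median of 294 to 304. Of the AC arrays 3 lay below the lowest YC array. The mean was 296 ± 6.01 (SD, n = 6) in YC and 272 ± 18.6 (SD, n = 5) in AC, a difference of -0.13 (95% confidence interval -0.21 to -0.04, limma adjusted p = 0.057). It passed without AC replicate 5 (-0.15, adjusted p = 0.022), without AC replicate 1 (-0.15, adjusted p = 0.025) and without ST replicate 3 (-0.13, adjusted p = 0.049). It was smaller without AC replicate 3 (-0.097, adjusted p = 0.17) and without the choroid-rich arrays named above (-0.063, adjusted p = 0.40). The ST arrays of Cort, from 253 through 274.5 to 295, lay near AC. The LT arrays, from 279 through 297 to 307, lay near YC. LT minus AC was 0.11 (adjusted p = 0.25), LT minus ST was 0.10 (adjusted p = 0.32) and ST minus YC was -0.11 (adjusted p = 0.11). None of these passed, and the F test over the 4 groups gave an adjusted p of 0.083 for Cort. The 3 tested genes most like Cort over the 23 arrays were Mmp11 (r = 0.78), Tle2 (0.75) and Bag4 (0.74). These values include the differences between groups, and with group means removed they were 0.64, 0.51 and 0.62.

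Npy, Vip and Cck, the peptides of other interneuron classes, did not pass in AC against YC. Npy encodes neuropeptide Y, which damps excitatory transmission. The AC arrays of Npy gave 751, 665, 676, 591 and 762 and its YC signals ran from 612 through 683.5 to 816, with a difference of -0.03 (95% confidence interval -0.20 to 0.15, limma adjusted p = 0.87). In ST it ran from 678 through 771 to 803 and in LT from 599 through 643.5 to 788, and all 4 groups overlapped. Npy was 0.14 higher by its log2 mean in ST than in AC (adjusted p = 0.60) and differed by -0.17 between LT and ST (adjusted p = 0.40).

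Vip encodes vasoactive intestinal peptide, which many interneurons that inhibit other interneurons release. In AC the signals were 81, 100, 88, 82 and 98, within the YC range of 78 to 106, and the difference was -0.06 (95% confidence interval -0.27 to 0.15, limma adjusted p = 0.75). The LT arrays ran from 71 through 81 to 92 and had the lowest mean, 81 ± 8.05 (SD, n = 6). LT minus YC was -0.21 (adjusted p = 0.36). ST ran from 77 through 89.5 to 125, and the highest Vip signal of all was ST replicate 5.

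Cck encodes cholecystokinin, made by a class of basket cells and also by pyramidal neurons. Its AC signals were 1620, 1544, 1508, 1557 and 2171, and its YC signals ran from 1556 through 1674.5 to 1786. AC replicate 5 was the highest of the 23 arrays, while the other 4 AC arrays lay in or below the lower part of the YC range. With that array the difference was -0.01 (95% confidence interval -0.15 to 0.14, limma adjusted p = 0.97), and without it and LT replicate 3 it was -0.10 (adjusted p = 0.13). ST ran from 1597 through 1672 to 1790 and LT from 1495 through 1526.5 to 1599. LT thus had the narrowest range and the lowest mean, 1542 ± 43.7 (SD, n = 6), but LT minus YC was -0.12 and did not pass (adjusted p = 0.46).

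Tac1, Penk and Pdyn encode precursors of tachykinins and opioid peptides. Tac1 gives substance P, an excitatory peptide. Signals on the AC arrays were 62, 78, 51, 50 and 65, and its YC signals ran from 65 through 73.5 to 94. Of the 5 AC arrays 3 lay below the lowest YC array and 1 was equal to it. The difference was -0.32 (95% confidence interval -0.59 to -0.05, limma adjusted p = 0.11), and it passed without AC replicate 2 (-0.41, adjusted p = 0.046). Without the 4 choroid-rich arrays Tac1 was at -0.15 (adjusted p = 0.49). ST ran from 52 through 64 to 76 and LT from 59 through 70 to 92, with differences from AC of 0.07 (adjusted p = 0.90) and 0.22 (adjusted p = 0.48).

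Penk gives enkephalins, ligands of the delta and mu opioid receptors. Its AC signals were 416, 711, 441, 414 and 460 and its YC signals ran from 376 through 538 to 738. The wide ranges overlapped, and the difference was -0.12 (95% confidence interval -0.47 to 0.23, limma adjusted p = 0.69). ST ran from 427 through 454.5 to 523 and LT from 410 through 523 to 733. Within YC, Penk varied more than 99.6% of the tested probe sets by its SD of log2 signal, 0.36.

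Pdyn gives dynorphins, ligands of the kappa opioid receptor. For Pdyn the AC arrays gave 425, 375, 396, 359 and 189, and its YC signals ran from 300 through 333 to 364. AC replicate 5 was the lowest of the 23 arrays, and 3 of the other 4 AC arrays lay above the highest YC array. The difference was 0.0014 with all arrays (95% confidence interval -0.30 to 0.30, limma adjusted p = 0.997) and 0.21 without AC replicate 5 (adjusted p = 0.12). The ST arrays, from 367 through 414 to 444, all lay above every YC array, as held at 3.49% of the probe sets tested. ST minus YC was 0.30 (standard error 0.14, 95% confidence interval 0.01 to 0.59, adjusted p = 0.22) and did not pass with all arrays. Without AC replicate 5, which enters this comparison only through the shared estimate of the spread and the adjustment, Pdyn passed in ST against YC. LT ran from 318 through 381.5 to 495, and ST and LT differed from AC by 0.30 (adjusted p = 0.51) and 0.18 (adjusted p = 0.61).

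Crh encodes corticotropin-releasing hormone, a stress peptide that hippocampal interneurons also make. Its AC signals were 57, 86, 83, 75 and 77 and its YC signals ran from 74 through 80.5 to 87. ST ran from 65 through 72.5 to 95 and LT from 67 through 72.5 to 98, so that all groups overlapped. The difference between AC and YC was -0.11 (95% confidence interval -0.34 to 0.12, limma adjusted p = 0.55), and neither ST (0.02) nor LT (0.02) differed from AC by more than the standard error of 0.11.

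**Figure D3:**
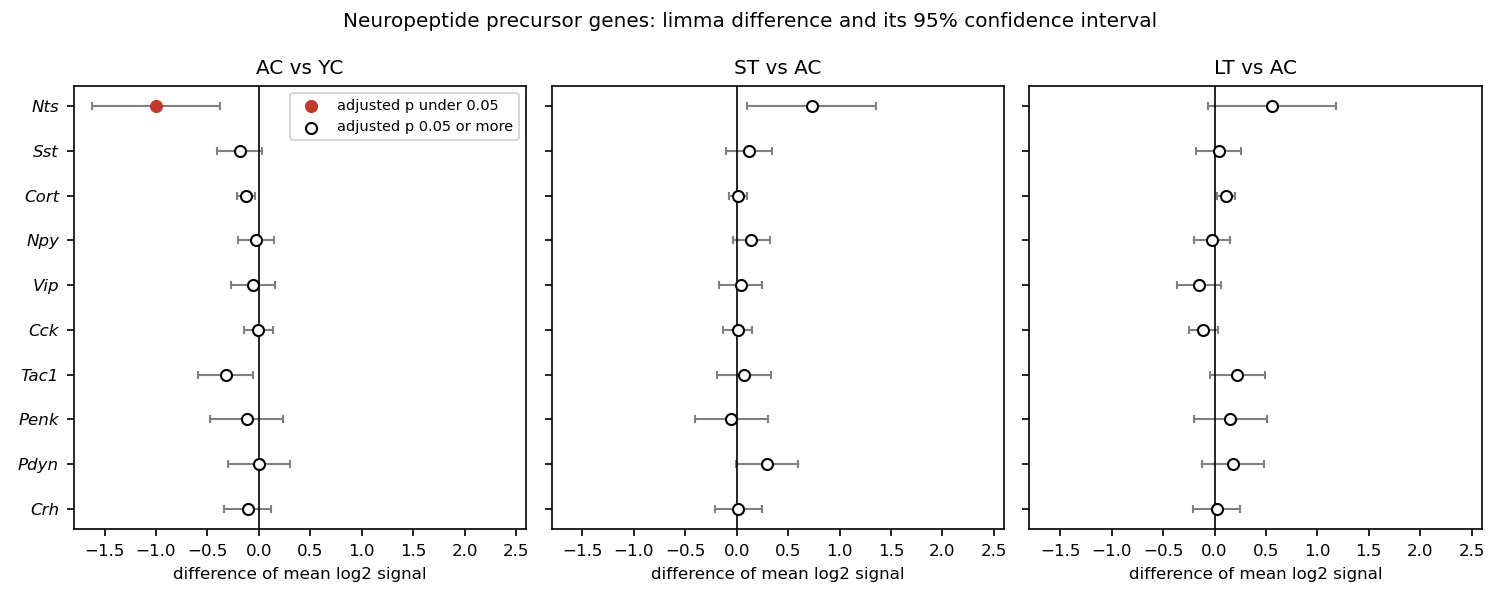
Difference of mean log2 signal for the 10 genes in AC minus YC, ST minus AC and LT minus AC, with the 95% confidence interval of each. The only filled point, an adjusted p under 0.05, is Nts in AC against YC at -1.0, and the 3 panels share the AC arrays.

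Counted together, 9 of the 10 genes lay below 0 in AC against YC, with a median log2 difference of -0.11, beside a median of -0.01 and 52.5% below 0 for all probe sets tested. Unadjusted p-values under 0.05 were found for 3 of the 10, namely Nts, Cort and Tac1, and for 27.4% of all probe sets. In ST against AC 0 of the 10 genes were called by limma, and 0% of all probe sets. In LT against AC 0 were called, beside 0.075% of all, and with ST and LT joined 0 were called, beside 0.03%. Beside these counts of 0, 1 gene in each of the 3 comparisons had an unadjusted p under 0.05, Nts in ST and in the joined groups and Cort in LT. Between LT and ST 0 genes were called (0.0075% of all probe sets), with Cort alone under an unadjusted p of 0.05. Against YC 0 were called in ST (4.15% of all) and 0 in LT (1.03% of all), with unadjusted p-values under 0.05 for Cort and Pdyn in ST and Vip in LT. The F test over the 4 groups called 0 of the 10, beside 5.46% of all, with Nts and Cort under an unadjusted p of 0.05. A missed threshold does not show that the groups are alike, and the confidence intervals above give the differences that 5 to 6 arrays a group leave possible.

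The SD of log2 signal was above that of the median probe set for 9 of the 10 genes in YC, 9 in AC, 7 in ST and 8 in LT, and Cort was below it in all 4 groups. The median over the 10 genes of the SD of log2 signal was 0.14 in YC, 0.23 in AC, 0.11 in ST and 0.22 in LT, beside 0.07, 0.11, 0.08 and 0.08 over all probe sets tested. Nts in AC (SD 1.04) exceeded 99.7% of them. Penk, Tac1 and Sst were variable in YC and in LT.

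Within groups, Tac1 and Penk rose and fell together from rat to rat. With group means removed, their Pearson r over the 23 arrays was 0.83 (permutation p = 1e-05, adjusted p = 0.00045 over 45 pairs) and Spearman rho was 0.78 (permutation p = 6e-05, adjusted p = 0.0027). Without the 2 arrays farthest out on Tac1, r was 0.73. Sst and Penk (r = 0.62, permutation p = 0.0018, adjusted p = 0.027; rho = 0.62, permutation p = 0.0017, adjusted p = 0.028) and Cort and Cck (r = 0.59, permutation p = 0.0016, adjusted p = 0.027; rho = 0.62, permutation p = 0.0019, adjusted p = 0.028) also passed. With the 2 farthest arrays left out, these values of r were 0.57 and 0.53. Nts and Cck ran opposite to each other (r = -0.74, permutation p = 0.0032, adjusted p = 0.036), but rho was -0.39 (permutation p = 0.066) and r was -0.13 without AC replicate 5 and LT replicate 3, so that this relation rested on those arrays. Over all 45 pairs the median r was 0.04, and 24 were above 0. The permutations made no allowance for the group means removed, so p-values of pairs near the threshold can be too small.

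The same rats differed in genes of other cells and of neighbouring tissue, and several of the neuropeptides followed these list scores. Penk followed the score of 9 striatal genes (r = 0.78, permutation p = 1e-05, adjusted p = 0.0004; rho = 0.74, permutation p = 8e-05), and r was 0.69 without the 2 farthest arrays. It also followed the score of 25 interneuron genes (r = 0.78, permutation p = 3e-05, adjusted p = 0.00051; 0.78 without the 2 farthest). Tac1 (r = 0.77, permutation p = 3e-05, adjusted p = 0.00051) and Sst (r = 0.73, permutation p = 3e-05, adjusted p = 0.00051) followed the interneuron score too, with 0.70 and 0.64 without the 2 farthest. Other peptides of interneurons did not pass with this score. Their permutation values were r = -0.36 for Npy (adjusted p = 0.235), 0.065 for Vip (0.877), 0.21 for Cck (0.565) and 0.24 for Cort (0.511). Calb1 and Prox1 were in both the interneuron and the dentate granule cell lists. Striatal scores had a range of -0.21 to 0.30 in YC and of -0.19 to 0.12 in AC. The range was -0.18 to -0.02 in ST, and LT spanned -0.16 to 0.24. Tac1 followed the striatal score less closely (r = 0.58, permutation p = 0.0034, adjusted p = 0.025), with 0.41 without the 2 farthest. The score of 7 thalamic and habenular genes was followed by Penk (r = 0.71, permutation p = 0.00021, adjusted p = 0.0025). Sst followed it too (r = 0.57, permutation p = 0.0038, adjusted p = 0.025). Without the 2 farthest these were 0.67 and 0.69. Striatal tissue is rich in Penk and Tac1. The part of striatal or thalamic tissue in the signals was not tested.

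Npy went the other way, with r = -0.71 for the striatal score (permutation p = 0.00011, adjusted p = 0.0015) and -0.58 without the 2 farthest arrays. For the thalamic and habenular score its r was -0.61 (permutation p = 0.0027, adjusted p = 0.021), and -0.52 without them. Cck followed 12 pan-neuronal genes (r = 0.92, permutation p = 1e-05, adjusted p = 0.0004; 0.74 without the 2 farthest), and so did Cort (r = 0.63, permutation p = 0.00064, adjusted p = 0.0055; 0.59 without). Pdyn followed 6 dentate granule cell genes (r = 0.86, permutation p = 2e-05, adjusted p = 0.00051) and ran against 9 microglia genes (r = -0.84, permutation p = 7e-05, adjusted p = 0.001). These values of r were 0.38 and -0.43 without AC replicate 5 and LT replicate 3. Over all arrays, Spearman rho was 0.66 (permutation p = 0.0007, adjusted p = 0.0085) and -0.74 (permutation p = 0.00012, adjusted p = 0.0024). Pdyn also ran against the interneuron score (r = -0.64, permutation p = 0.0005, adjusted p = 0.0046), with -0.50 without those arrays. Of 120 relations of the 10 genes to 11 list scores and the RNA integrity number, 20 passed by Pearson r and 17 by Spearman rho. Those not described above were Nts with pan-neuronal (r = -0.72) and dentate genes (0.69), and Cck with dentate (-0.72) and oligodendrocyte genes (-0.78). Without the 2 farthest arrays these values of r were -0.02, 0.20, -0.11 and -0.32. Of them only Cck with oligodendrocyte genes passed by rho (-0.58, permutation p = 0.0045, adjusted p = 0.033).

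**Figure D4:**
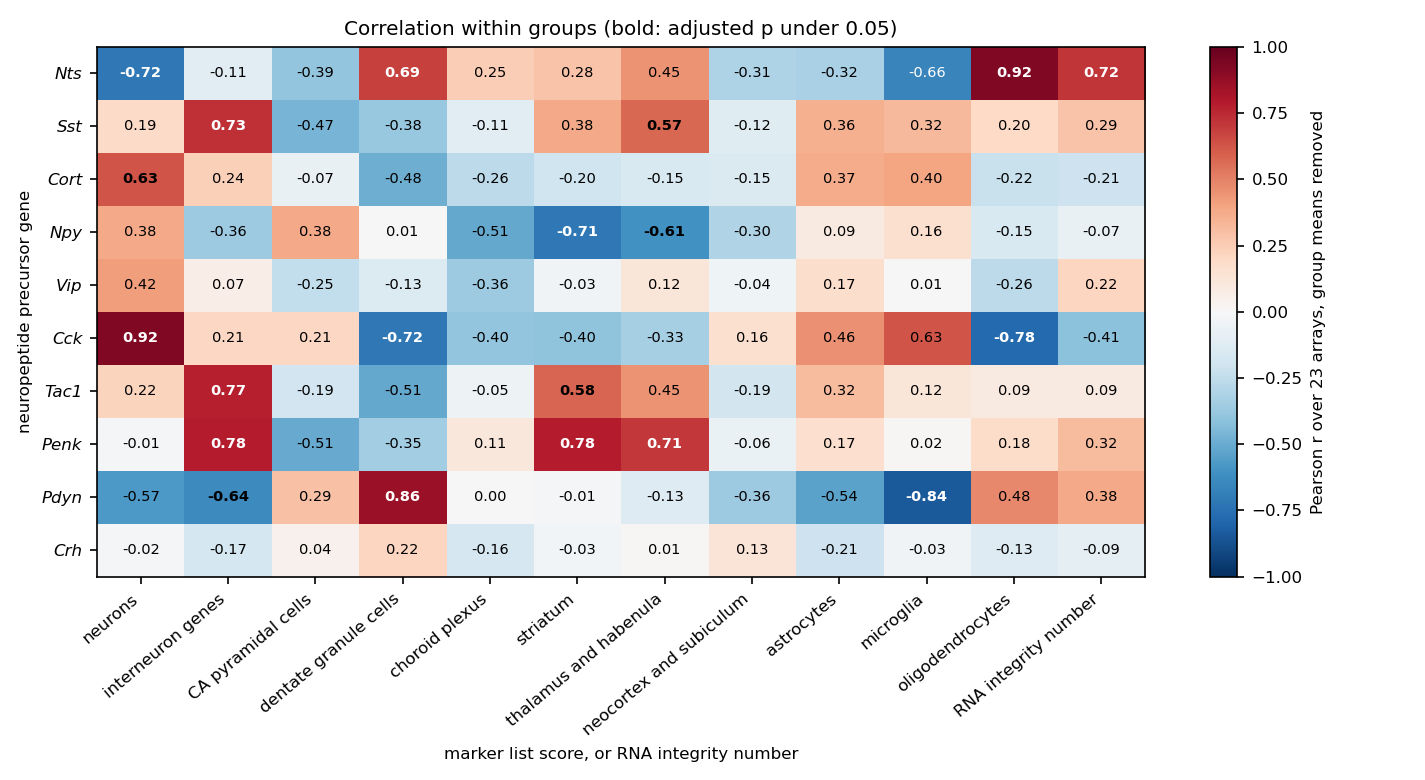
Pearson r between each neuropeptide gene (rows) and each marker list score or the RNA integrity number (columns) over 23 arrays, with group means removed; red is positive, blue negative, and bold values had an adjusted p under 0.05 over the 120 relations. Cck with pan-neuronal genes and Nts with oligodendrocyte genes, both at 0.92, were the highest values.

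**Figure D5:**
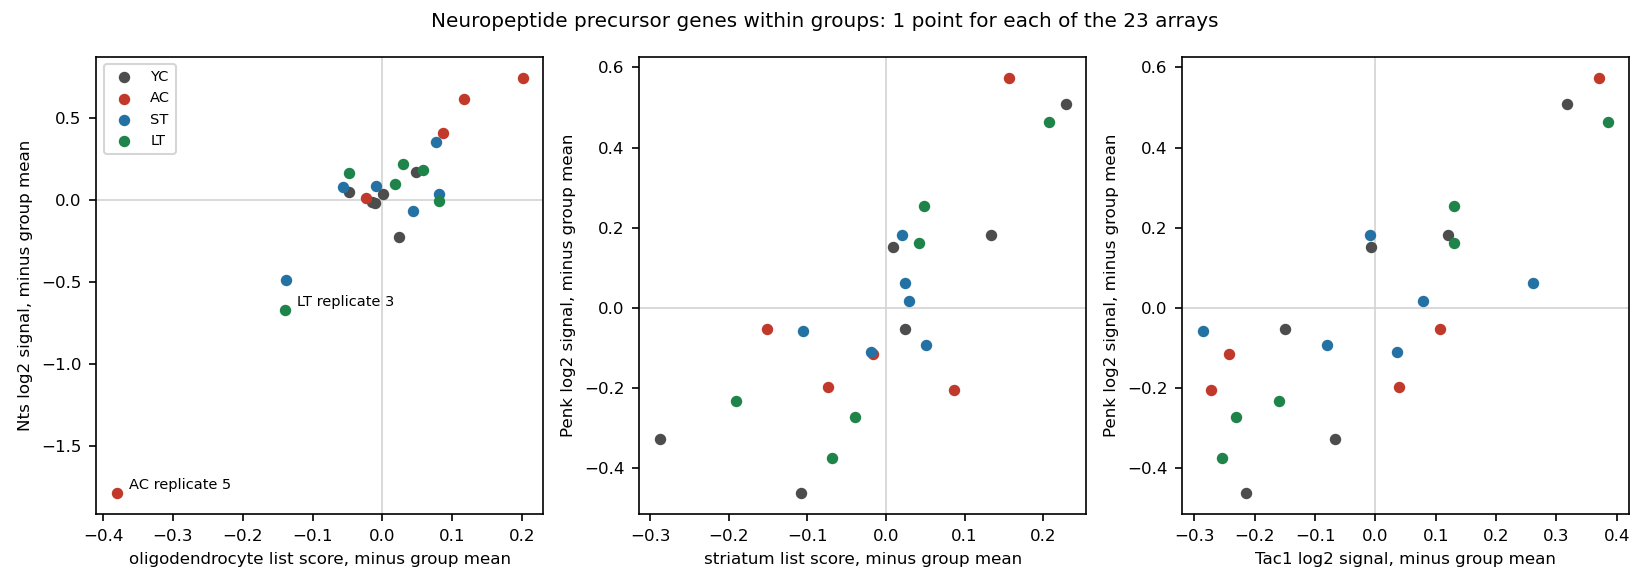
Values with group means removed, 1 point for each array: Nts against the oligodendrocyte score, Penk against the striatum score and Penk against Tac1, all on the log2 scale. AC replicate 5 and LT replicate 3 lie at the low end of the first panel, whereas the points of the other panels are spread along the whole range.

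Of the receptors and binding proteins of these peptides, 22 of 28 listed genes were tested, and 1 was called in AC against YC. Sstr2, a somatostatin receptor, fell by 0.21 (standard error 0.06, limma adjusted p = 0.026), from a mean signal of 372 in YC to 321 in AC, and stood at 360 in ST and 361 in LT. The neurotensin receptors did not pass, with Ntsr1 at -0.33 (adjusted p = 0.15), Ntsr2 at -0.11 (adjusted p = 0.20) and Sort1, the sorting receptor sortilin, at -0.05 (adjusted p = 0.29). Of the others Npy5r was at -0.25 (adjusted p = 0.075) and Cckbr at -0.31 (adjusted p = 0.18). The median of the list was -0.07, with 15 of 22 below 0, beside 9.75% called, a median of -0.01 and 52.5% below 0 over all probe sets tested.

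Of 20 tested genes that cut, trim, amidate and store neuropeptides, 1 was called in AC against YC, and the median was -0.02. Over all probe sets tested 9.75% were called, with a median of -0.01. Furin, a convertase of many precursors, rose by 0.22 (standard error 0.05, adjusted p = 0.014). The granule genes did not pass, with Chga at -0.12 (adjusted p = 0.38), Chgb at -0.06 (adjusted p = 0.40) and Vgf at -0.20 (adjusted p = 0.17). Nor did Pcsk2 (-0.09, adjusted p = 0.24), the main neuronal convertase of this list, or Cpe (-0.02, adjusted p = 0.66), which trims the cut ends. Pcsk6, another convertase, was higher in ST than in YC by 0.22 (adjusted p = 0.049), the only 1 of the 20 called there, beside 4.15% of all.

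Among 15 tested enzymes that break down peptides, 2 rose and 1 fell in AC against YC, beside 9.75% of all probe sets called. Ctsl, the lysosomal protease cathepsin L, rose by 0.26 (adjusted p = 0.0019), and Nln, neurolysin, which cuts neurotensin, rose by 0.14 (adjusted p = 0.035). Mme, neprilysin, which cuts enkephalins and tachykinins, fell by 0.20 (adjusted p = 0.014). Mme was also lower in LT than in YC (-0.21, adjusted p = 0.030), and in ST against YC Ctsl was higher (0.16, adjusted p = 0.035) and Anpep, an aminopeptidase, lower (-0.19, adjusted p = 0.036). Over all probe sets 1.03% were called in LT against YC and 4.15% in ST against YC. Microglia express Ctsl, and 7 of 9 microglia genes were called higher in AC than in YC, beside 9.75% of all probe sets called in either direction. They were Csf1r (0.50), P2ry12 (0.45), Cx3cr1 (0.41), C1qc (0.77), C1qb (0.67), Aif1 (0.47) and C1qa (0.49), of which Csf1r, P2ry12 and Cx3cr1 were also called higher in ST and P2ry12 in LT against YC. The part of those cells in the Ctsl value was not tested.

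Of 47 other neuropeptide precursors tested, 5 were called lower and 2 higher in AC against YC, with a median of -0.12 and 34 below 0. Over all probe sets 9.75% were called and 52.5% lay below 0, with a median of -0.01. Gip (-0.33, adjusted p = 0.011), Edn3 (-0.26, adjusted p = 0.011), Pomc (-0.24, adjusted p = 0.016), Prok2 (-0.27, adjusted p = 0.017) and Rln3 (-0.35, adjusted p = 0.046) were lower. Nucb2, the nesfatin precursor (0.22, adjusted p = 0.0029), and Adm, adrenomedullin (0.32, adjusted p = 0.027), were higher. In ST against YC, Gip (-0.30), Qrfp (-0.25) and Agrp (-0.32) were lower, 3 of the 47, beside 4.15% of all probe sets called. None of the receptor, processing, peptidase or other precursor genes was called in ST or LT against AC, where 0% and 0.075% of all probe sets were.

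Interneuron genes other than the peptides showed 1 call of 25 in AC against YC, beside 9.75% of all probe sets. It was Maf, a transcription factor, which rose by 0.29 (standard error 0.06, adjusted p = 0.0056). The GABA-synthesizing enzymes did not pass, with Gad1 at -0.29 (adjusted p = 0.15) and Gad2 at -0.34 (adjusted p = 0.10). Pvalb, the calcium-binding protein of fast-spiking cells, was at 0.05 (adjusted p = 0.65). Nr2f2 (0.62, adjusted p = 0.079) and Nos1 (0.30, adjusted p = 0.20) lay above 0 and did not pass either. Of the 25 genes 13 lay below 0 and 12 above, with a median of -0.05, beside -0.01 over all probe sets tested. Among the marker lists used above, 0 of 12 pan-neuronal, 0 of 12 CA pyramidal, 0 of 6 dentate and 0 of 7 oligodendrocyte genes were called in AC against YC by limma. Over all probe sets 9.75% were called, and 27.4% had an unadjusted p under 0.05. In these lists the unadjusted p-value was under 0.05 for Snap25, Tubb3, Amigo2, Bok, Grik4, Sema5b and Cnp. The next smallest p-values of those lists were above it, for Elavl4, Calb1, Prox1, Mog and Mbp. In the striatal list Gpr6 was lower (-0.15, adjusted p = 0.027), in the thalamic list Chrnb4 was lower (-0.20, adjusted p = 0.015) and Lef1 higher (0.15, adjusted p = 0.037), in the list of cortical and subicular genes Fn1 was higher (0.87, adjusted p = 0.0029), and among astrocyte genes Gfap was higher (0.43, adjusted p = 0.0022). The 18 choroid plexus genes had a median of 1.25 with 0 called, and Slc13a4 (1.16) and Kcnj13 (2.43) had unadjusted p-values under 0.05, whereas Slc4a5 (1.4) did not.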

How the data were processed

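Total RNA of 23 dorsal hippocampi was hybridized to the Rat Gene 1.0 ST array of Affymetrix, 1 array for each rat. The deposited table holds 1 signal intensity for each probe set and array, made by the authors with the RMA algorithm at the transcript level. The submitters' processing notes name Partek and RMA, with versions not given in the sources used here. Values are unlogged and whole, and 758 are blank. No scan dates or per-probe background were given, so the number of arrays limits the precision. Replicates are separate rats.

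Signals were taken to log2. The 13339 probe sets that carried a single symbol and reached 40 on 4 or more arrays entered limma 3.58.1 (R 4.3.3), in 1 fit with a mean for each of the 4 groups, with 7 contrasts and an F test. The Benjamini-Hochberg adjustment ran over all of them, and a gene was called at an adjusted p under 0.05. The text names every member, the called genes of each other list (or the 3 with the smallest p) and the genes most like Nts and Cort. Correlations between members and with list scores were taken on values less their group mean, and the genes most like Nts and Cort on log2 signals as they were. Their p-values came from 100000 two-sided permutations of arrays, across all groups, in Python 3.11.15. These permutations make no allowance for the 4 group means removed or for unequal spread between groups, so the p-values can be too small. List scores used the brightest probe set of each gene. The fit was tested on simulated data. Members and lists were chosen with earlier results of these data known. Alternatives covered normalization, filters, pseudocount, array weights, covariates, a replicate block and leaving out each array.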

Additional observations from a re-analysis of the deposited data

Results flagged for a closer look

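In 5 of the 40 sets of a gene and a group, 1 array stood farther from its neighbours than Dixon's 95% critical value allows; chance alone flags about 1 set in 20. Cck on AC replicate 5 had a signal of 2171, with the nearest AC array at 1620. Pdyn on the same array was 189, with the nearest at 359. Nts on LT replicate 3 was 278, with the nearest LT array at 441, and Sst on that array was 950, with the nearest at 1314. Penk on AC replicate 2 was 711, with the nearest AC array at 460. AC replicate 5 and LT replicate 3 were also the arrays of lowest RNA integrity number, and its part in these values was not tested. Nts on AC replicate 5, at 87 with the nearest at 303, did not pass that value.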

How the results depend on the processing

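In AC against YC the direction of Nts held in all 40 alternatives (-1.21 to -0.55), and its call was lost in 11. The count of genes called, 1 with all arrays, was 2 under quantile normalization, array weights and the methods' analysis of variance without adjustment (Nts and Cort each time) and 2 with a replicate block (Cort and Tac1). It was 0 with a variance trend and robust moderation, without the 4 arrays of high choroid plexus score and with only the groups compared. Of all 13339 probe sets, 1300 were called with all arrays. The number called was 1296 under quantile normalization, 1709 with array weights, 2441 by the unadjusted analysis and 1169 with the block. It was 1307 with the variance trend, 398 without the choroid-rich arrays and 385 with only the groups compared. Leaving out each array gave 0 to 2 genes. The count was 0 without any single YC replicate or AC replicate 4. It was 2 without AC replicate 1, AC replicate 5 or ST replicate 3 (Nts and Cort) or AC replicate 2 (Nts and Tac1). Of all probe sets, 853 to 1143 were called without a YC replicate and 820 without AC replicate 4. The number was 1868 without AC replicate 1, 1582 without AC replicate 5, 1183 without ST replicate 3 and 1161 without AC replicate 2. In ST against YC the count of 0 became 2 with array weights (Cort and Pdyn), 1 with only the groups compared (Pdyn) and 1 by the methods' analysis without adjustment (Cort). It ran from 0 to 1 with each array left out. Of all probe sets, 553 were called in ST against YC with all arrays. The number was 1979 with array weights, 1157 with only the groups compared, 1991 by the unadjusted analysis and 1012 without AC replicate 5. The F test's 0 became 1 with array weights (Cort) or the RNA integrity number as a covariate (Nts). It became 2 by the methods' analysis without adjustment, and ran from 0 to 1 with each array left out. Of all probe sets, the F test called 728 with all arrays, 1929 with array weights, 875 with the covariate and 3223 by the unadjusted analysis. The methods' analysis without adjustment also called 1 gene in each of the other comparisons. Nts was called in ST against AC (813 of all probe sets), with ST and LT joined (931) and in LT against YC (1303). Cort was called in LT against AC (1215) and in LT against ST (1092). Without AC replicate 5 and LT replicate 3, chosen after seeing the data, the counts were 2 in AC against YC, 1 in ST against YC and 3 in the F test. Of all probe sets, these called 1575, 1004 and 1227. The pairs of genes that passed, 4 in all, were 1 without the 2 farthest arrays, 2 without AC replicate 5 and LT replicate 3 and 3 to 6 with each array left out. The cause of these changes was not tested.

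Replicate numbers did not pair the samples: 33 pairs of arrays with the same number had correlated deviations of -0.385 to 0.208, and 2 of 23 arrays were most like an array of their own number. The block changed no other count than that of AC against YC.

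No value that changed sign had passed the test in its comparison with all arrays. In AC against YC, Cck was 0.016 with array medians made equal and 0.0069 in the methods' analysis, Pdyn was -0.025 under quantile normalization and -0.017 with the replicate block, and with the choroid plexus score as a covariate Npy was 0.055, Vip 0.012 and Cck 0.045. Without the 4 choroid-rich arrays Npy was 0.051, Cck 0.074 and Pdyn -0.11. In ST against AC, Crh was -0.0071 with array weights and -0.0038 with the block, and Cck was -0.0013 in the methods' analysis. With the choroid covariate Cort was -0.0081, Vip -0.052, Cck -0.052 and Crh -0.027, and without the choroid-rich arrays Cort was -0.047, Vip -0.012, Cck -0.068 and Tac1 -0.10. In LT against AC, Crh was -0.012 under quantile normalization and -0.012 with array weights, Npy was 0.036 with array weights, and without the choroid-rich arrays Sst was -0.11, Tac1 -0.079 and Penk -0.11. Without AC replicate 5 and LT replicate 3, Npy was 0.040, Pdyn -0.10 and Crh -0.044. With each array left out, AC against YC ran from -0.10 to 0.030 for Cck, -0.066 to 0.026 for Npy and -0.083 to 0.21 for Pdyn. ST against AC ran from -0.024 to 0.11 for Cck, -0.014 to 0.043 for Cort, -0.082 to 0.066 for Crh, -0.10 to 0.092 for Penk and -0.051 to 0.089 for Vip. LT against AC ran from -0.078 to 0.070 for Crh, -0.077 to 0.015 for Npy, -0.025 to 0.27 for Pdyn and -0.032 to 0.13 for Sst, which reached 0.16 without AC replicate 5 and LT replicate 3 together.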
